A study of Mus musculus with 26 samples.

Results

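The genes described here are 7 members of the T helper 2 (Th2) programme: the transcription factors Gata3, Stat6, Nfil3 and Pparg and the cytokines Il4, Il5 and Il13. They are 7 of the 24411 gene symbols of a raw count table with 26 mouse CD4 T cell RNA-seq libraries. They were taken by symbol, with no cut on their values, but with earlier results of these data known. Of the 7, 6 passed the filter on low counts and were tested among 12227 genes. Il5 had 27 reads in all libraries together and is given as read counts.

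Th2 cells are helper T cells that drive responses to parasites and allergens. Interleukin 4 (IL-4), sensed by its receptor, activates STAT6, which induces GATA3, and GATA3 opens the gene cluster that encodes IL-4, IL-5 and IL-13. Regulatory T cells (Tregs), which restrain immune responses under the factor Foxp3, also use GATA3, and Tregs of barrier and fat tissue carry Th2-type receptors such as the IL-33 receptor. NFIL3 is a basic leucine zipper repressor tied to cytokine and clock genes, PPAR gamma is a lipid-sensing nuclear receptor found in fat Tregs and Th2 cells, and BATF is an AP-1 family factor of activated T cells.

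Fresh cells of spleen and lymph nodes (strain C57BL6/J) were sorted into 13 groups of 2 libraries, in 5 sets, and groups were tested against each other only within a set. Comparisons within a set share groups (WT Treg, Tconv or the 4 sorted groups), so their values are not independent. Most animals carried human CD2 as a reporter of Foxp3 (Foxp3-IRES-hCD2). In the germline set, CD4+hCD2+ cells came from such animals (WT Treg) or from the same reporter on a Batf-/- background (BATFKO Treg), and Tconv were CD4+hCD2- cells. In the YFP set, Foxp3-IRES-YFPCre/Foxp3-IRES-hCD2 animals had an intact Batf gene (WT Treg YFP) or were Batfflox/flox (BATFcKO Treg YFP), and CD4+YFP+hCD2- cells were taken, so Cre was driven from the Foxp3 locus. In the other 2 sets Foxp3-IRES-GFP was paired with a Foxp3 allele that carried the human CD2 reporter. The Foxp3 of that allele was wild type, R397W (a missense change) or fs101 (the allele of the group labelled Foxp3KO). CD4+hCD2+GFP- cells were taken. Each of these sets had its own wild-type control. The sorted set split reporter-positive cells of Foxp3-IRES-hCD2 animals into cTreg (CCR7hi CD62Lhi CD44lo) and eTreg (CCR7lo CD62Llo), and hCD2- cells into Tnaive and Teff by the same markers. The cell type label of Tconv reads Treg beside the gate CD4+hCD2-, and they were grouped by title.

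Libraries held 5615929 to 7300917 reads in the germline set, 5790232 to 6813077 in the YFP set, 6036966 to 6831764 in the R397W set, 26321134 to 34613707 in the Foxp3KO set and 9774025 to 10641332 in the sorted set. Cd4 lay between 684.8 and 1522 CPM (counts per 1000000 reads of a library whose size was scaled by TMM) in all libraries. Foxp3 was at 4.07 CPM or less in Tconv, Tnaive and Teff, and at 111 ± 3.05 CPM (SD, n = 2) in Foxp3KO Treg against 337 ± 16.1 in its control. Batf was at 7.02 ± 0.273 CPM in BATFKO Treg against 64.5 ± 26.04 in WT Treg, and at 17.7 ± 2.51 in BATFcKO Treg YFP against 63.1 ± 6.63. Separate animals are not stated for the 2 libraries of a group, so p-values measure only the spread between these libraries. In bulk samples fewer cells expressing a gene and less RNA per cell cannot be told apart.

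The 3 cytokine genes lie in 1 cluster on mouse chromosome 11 (mm10, equal to GRCm38; gene models of GENCODE M21). Il4 spans chr11:53602982-53618669 on the minus strand and Il13 chr11:53631324-53634702 on the minus strand, with 12654 bases between them. Il5 follows on the plus strand at chr11:53720794-53725106, 86091 bases beyond Il13. Rad50, a DNA repair gene whose end towards Il13 holds the locus control region of the cluster, lies between Il13 and Il5. The other members lie on 4 other chromosomes: Gata3 at chr2:9857078-9890034 (minus), Pparg at chr6:115360951-115490399 (plus), Stat6 at chr10:127642986-127660957 (plus) and Nfil3 at chr13:52967209-52981073 (minus). Exons of Gata3, Il5 and Stat6 share 155, 417 and 40 bases with an antisense neighbour on the opposite strand (Gm13256, Gm12214 and Nab2). No source used here says if strand was used in counting, so reads in those bases cannot be assigned to 1 gene.

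The 250 bases before the start of Il4, Il13 and Il5 are shown because these cytokine genes share a cluster. Il4 and Il13 were both higher in eTreg than in cTreg and in Teff than in Tnaive, but not alike between eTreg and Teff. Sequences are from RefSeq (GRCm38.p6), read in the direction of the gene: Il4 from chr11:53618666-53618915 (minus), Il13 from chr11:53634703-53634952 (minus) and Il5 from chr11:53720544-53720793 (plus). Capitals mark the letters GATA on either strand, the core read by GATA factors, and the STAT6-type motif, TTC and GAA with any 4 bases between them.
Il4: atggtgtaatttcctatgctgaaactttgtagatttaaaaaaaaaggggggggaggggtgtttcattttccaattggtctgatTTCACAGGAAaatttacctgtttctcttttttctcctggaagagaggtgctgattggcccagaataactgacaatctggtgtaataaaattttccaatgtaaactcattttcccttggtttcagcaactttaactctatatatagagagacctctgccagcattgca
Il13: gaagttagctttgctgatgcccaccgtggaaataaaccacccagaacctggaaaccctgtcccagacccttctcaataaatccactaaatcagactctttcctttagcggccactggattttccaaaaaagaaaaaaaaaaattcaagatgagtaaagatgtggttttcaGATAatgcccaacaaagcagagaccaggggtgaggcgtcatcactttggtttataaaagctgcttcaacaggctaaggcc
Il5: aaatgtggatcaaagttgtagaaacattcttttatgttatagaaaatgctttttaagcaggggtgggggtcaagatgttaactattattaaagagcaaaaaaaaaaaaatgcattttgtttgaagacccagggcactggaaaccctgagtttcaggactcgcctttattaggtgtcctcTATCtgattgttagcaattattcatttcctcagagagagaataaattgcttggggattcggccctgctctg
The Il13 window had GATA once, 80 bases before the start, and the Il5 window once, 71 bases before it. The Il4 window shown held no GATA but 1 STAT6-type match, 167 bases before the start, and 4 matches to the NFAT-type letters GGAAAA, of which 1 overlaps the STAT6-type match. RefSeq has a second Il4 start within the gene, whose window (chr11:53617339-53617588, not shown) held 3 GATA, 222, 79 and 36 bases before that start, the most among the 10 windows of the 7 members, and no STAT6-type or GGAAAA match. Il13 had 1 GGAAAA and Il5 none. Over 32851 RefSeq windows of the same length, 53.6% held GATA, 5.85% the STAT6-type motif and 20.4% GGAAAA, on either strand. The AP-1 letters TGANTCA, read by BATF with its partners and held by 6.75% of windows, were in none of the 10 windows of the 7 members. The NFIL3-type letters TTANNTAA (5.43%) were in 1 window, that of a Pparg start. A match describes letters, not binding.

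Stat6, Gata3 and Nfil3 had reads in all 26 libraries. Stat6, the transducer of the IL-4 signal, had the narrowest range, from 324 CPM in a Foxp3R397W Treg library to 450 in a BATFKO Treg library, with a median of 384. Gata3 ranged from 86.4 to 348 CPM with a median of 191. Nfil3 spanned from 1.12 CPM in a Tnaive library to 168 in a WT Treg library, with a median of 42.2. Per kilobase of exon, the eTreg levels were 87.0 ± 1.05 CPM per kb for Stat6, 64.4 ± 2.002 for Gata3, 23.4 ± 5.89 for Nfil3, 3.63 ± 0.729 for Il4, 1.43 ± 0.117 for Il13, 0.405 ± 0.0243 for Pparg and 0.124 ± 0.0877 for Il5 (SD, n = 2). The regulators Stat6 and Gata3 were thus more abundant per length than any of the cytokines in these cells.

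In order of mean CPM, Gata3 was highest in WT Treg (318 ± 41.0), then in the R397W control (280 ± 9.17), BATFKO Treg (258 ± 4.55), eTreg (256 ± 7.96), the Foxp3KO control (232 ± 7.61), WT Treg YFP (216 ± 35.2), Teff (187 ± 6.14), Tconv (178 ± 6.51), BATFcKO Treg YFP (174 ± 41.6), Foxp3R397W Treg (151 ± 29.2), Foxp3KO Treg (148 ± 5.998), cTreg (137 ± 0.691) and Tnaive (86.6 ± 0.224). Tnaive stood below all other groups, and WT Treg did not overlap its neighbour in that order. BATFKO Treg and eTreg overlapped, as did the groups from the Foxp3KO control to Teff and from Tconv to Foxp3KO Treg when each was set beside the next. The order crosses sets sorted with different reporters, so it describes levels and no test was made across it.

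Nfil3 followed a different order at its upper end. The Foxp3KO control libraries (144 and 145 CPM) and the WT Treg libraries (91.8 and 168) were highest, then the R397W control (90.1 and 92.3). BATFKO Treg (45.0 and 84.1), Foxp3KO Treg (57.8 and 69.1), eTreg (38.9 and 55.7), Foxp3R397W Treg (34.4 and 47.7) and Tconv (29.9 and 50.2) lay in the middle. WT Treg YFP (12.1 and 39.4), Teff (11.7 and 24.1) and BATFcKO Treg YFP (7.55 and 23.8) were lower, and cTreg (3.10 and 3.37) and Tnaive (1.12 and 2.30) did not overlap any other group. Libraries of 1 group often lay far apart for Nfil3. In each germline group library 2 was higher than library 1, and in each YFP group library 1 was higher than library 2. Jun, an immediate early gene picked after the values were seen, moved the same way in these groups (1178 and 2293 CPM for WT Treg, 768.6 and 1941 for BATFKO Treg, 1179 and 2201 for Tconv, 820.2 and 363.9 in WT Treg YFP, 1327 and 687.5 in BATFcKO Treg YFP). Of Fos, Dusp1, Egr1 and Nr4a1, only Fos in BATFKO Treg went the other way there (728.8 and 693.9 CPM). In Foxp3R397W Treg Jun was at 639 and 1319 CPM in libraries 1 and 2, but Nfil3 at 47.7 and 34.4. In Foxp3KO Treg Jun was at 705.5 and 763, but Nfil3 at 69.1 and 57.8. The part of handling in the Nfil3 values was not tested.

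**Figure D1:**
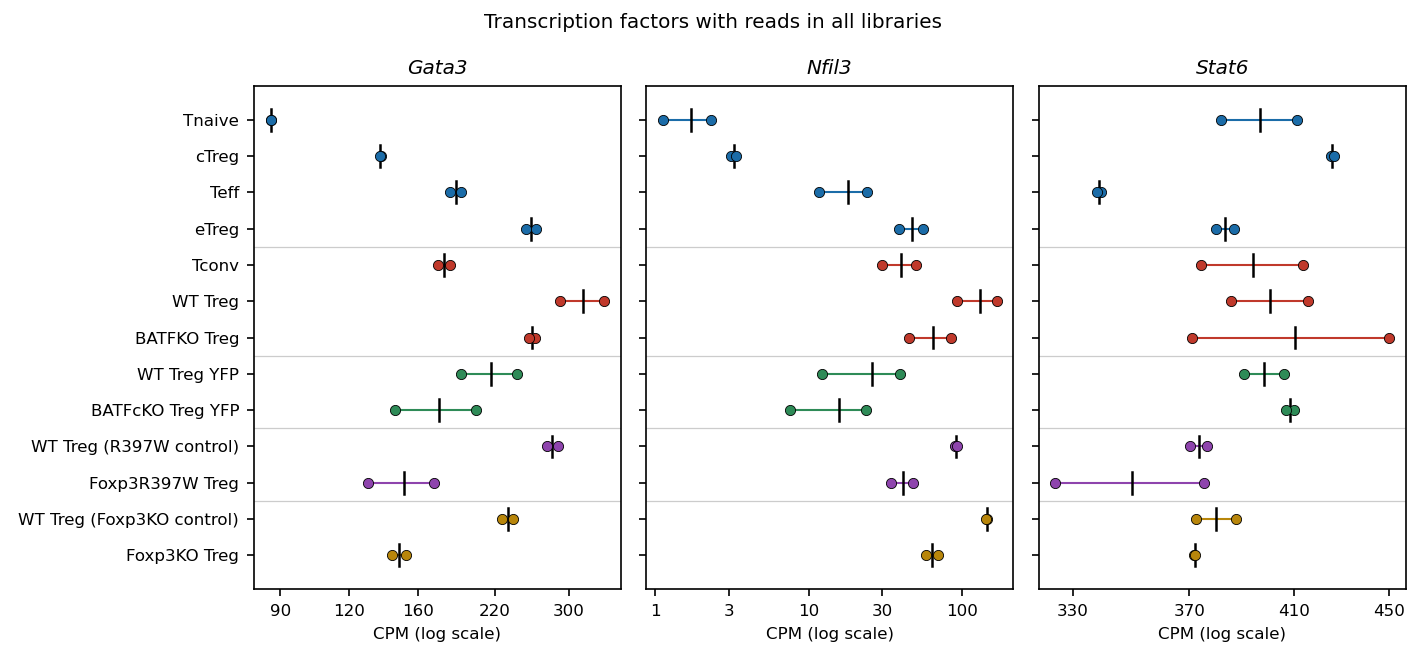
CPM of Gata3, Nfil3 and Stat6 on log axes (1 point per library, short black line at the mean of 2 libraries, line colour by set, sets parted by grey lines). Tnaive libraries lie lowest for Gata3 and Nfil3, while Stat6 stays between 324 and 450 CPM in all groups.

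Il4, which encodes the cytokine that drives Th2 differentiation, was highest in Teff. The 2 Teff libraries had 129 and 138 reads, both 12.6 CPM, and the 2 eTreg libraries 40 and 53 reads, 3.82 and 5.09 CPM. All other libraries had 3.07 CPM or less: BATFKO Treg had 3.07 and 0.999, and the remaining groups had means from 0 in Tnaive to 1.12 in WT Treg. Neighbours from BATFKO Treg down to Foxp3KO Treg overlapped in their order.

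Il13, the effector cytokine of mucus and tissue responses, was highest in eTreg, with 17 and 19 reads (1.62 and 1.82 CPM). Teff had 7 and 13 reads (0.683 and 1.19 CPM), and the group below it, the Foxp3KO control, had 9 and 21 reads in its deeper libraries (0.366 and 0.708). No read was found in cTreg, Tnaive or BATFcKO Treg YFP. Il5, the growth factor of eosinophils, had at most 5 reads in a library and none in 13 of the 26. The 27 reads lay in Teff (3 and 2), eTreg (3 and 1), the Foxp3KO control (5 and 2), Foxp3KO Treg (1 and 4), BATFKO Treg (2 and 0) and, with 1 read each, in the R397W control, Foxp3R397W Treg, Tnaive and cTreg. Differences in Il5 were not detectable at this depth: without the filter on low counts no comparison called it, the smallest edgeR adjusted p being 0.511, for Teff against Tnaive.

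Pparg was highest in BATFKO Treg, at 8.68 and 3.16 CPM (65 and 19 reads). Every other library had 1.93 CPM or less. BATFcKO Treg YFP (1.61 and 1.89), the R397W control (1.22 and 1.93), the Foxp3KO control (1.21 and 1.67) and eTreg (1.15 and 1.25) overlapped from one to the next. Tconv had no Pparg read, which allows up to 3 reads in the 2 libraries together, and Tnaive had 1.

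**Figure D2:**
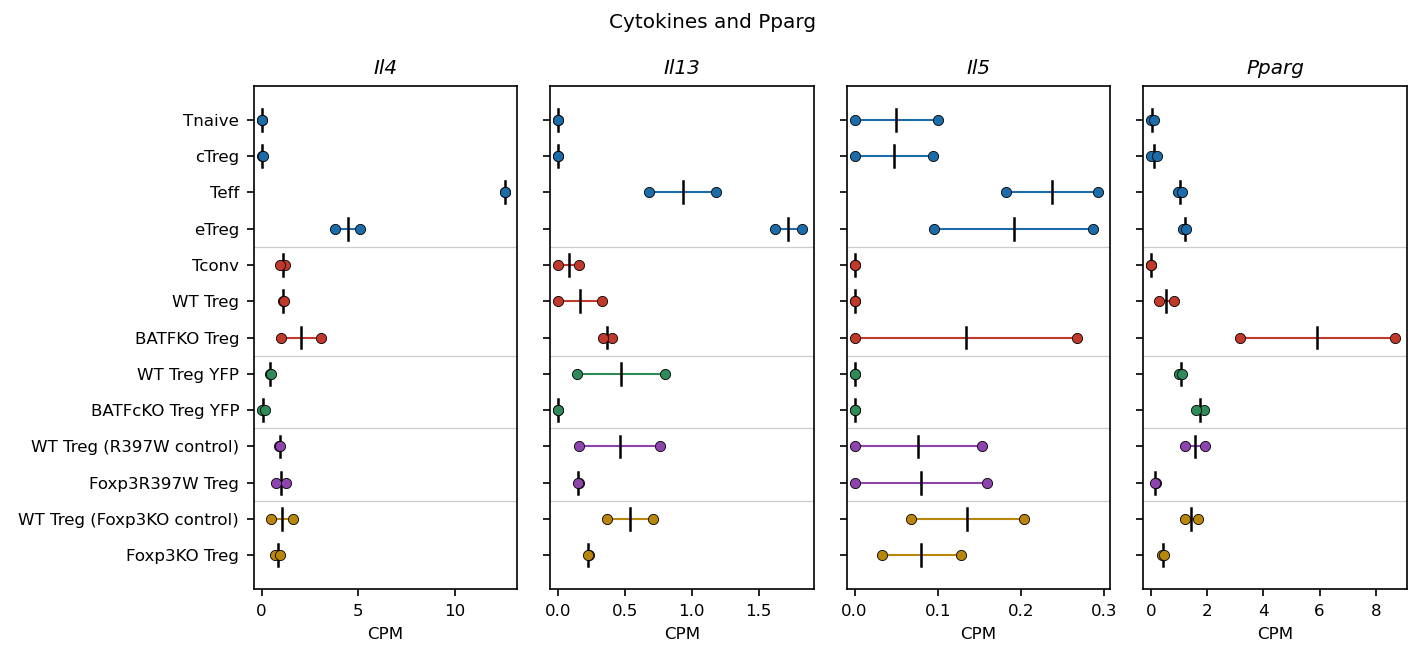
CPM of Il4, Il13, Il5 and Pparg on linear axes (1 point per library, short black line at the mean of 2 libraries, line colour by set). Il4 stands out in Teff and eTreg, Il13 in the same groups in the opposite order, Pparg in BATFKO Treg, and no Il5 library exceeds 0.293 CPM.

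In the sorted set, Gata3, Nfil3, Il4, Il13 and Pparg were higher in the CCR7lo CD62Llo populations than in the CCR7hi CD62Lhi ones, among Tregs and among conventional cells alike. In eTreg against cTreg 5 of the 6 tested members were higher and none lower, where 31.1% of the 12227 tested genes were called in either direction, 18.8% higher and 12.3% lower (adjusted p below 0.05 by edgeR's quasi-likelihood test with Benjamini-Hochberg adjustment). The median log2 change of the 6 was 3.68, against 0.01 for all tested genes. In Teff against Tnaive 5 of 6 were again higher and none lower, with 35.3% of genes called (21.2% higher, 14% lower) and a member median of 3.74 against 0.01. With genes that had no read in 1 group set at the lower bound of their change, the medians were 3.53 and 3.01. Il4, Il13 and Pparg reached the level of the filter on low counts in both libraries of only 2 groups or 1. These counts and medians are thus a description of what was measured. With 2 libraries a group, separation alone is common: in eTreg against cTreg 73.6% of tested genes had groups that did not overlap. The share was 74.3% in Teff against Tnaive and 60.9% in eTreg against Teff.

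Gata3 was at 262 and 251 CPM in eTreg against 137 and 136 in cTreg, and the groups were far apart. Its log2 change was 0.91 ± 0.15 (SE; edgeR adjusted p = 7.77e-05). In conventional cells it went from 86.4 and 86.7 CPM in Tnaive to 191 and 183 in Teff (1.11 ± 0.15, edgeR adjusted p = 7.4e-06). A difference in size between the lineages was not detected: the Treg change minus the conventional one was -0.20 ± 0.21 (edgeR adjusted p = 0.868), and 5.42% of all genes but none of the 6 members were called for such a difference.

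Nfil3 had the largest change among the members with reads in every library. It rose by 3.87 ± 0.59 in eTreg (edgeR adjusted p = 4.65e-05) and by 3.38 ± 0.69 in Teff (edgeR adjusted p = 0.000714). All 4 libraries of the CCR7lo groups were above all 4 of the CCR7hi groups. Jun was at 29.7 and 149 CPM in Teff and at 57.2 and 273 in Tnaive, again with library 2 higher, as for Nfil3 in both groups. In cTreg both genes were also higher in library 2, but in eTreg Jun was at 64.8 and 62.8 CPM and Nfil3 at 38.9 and 55.7. The change in Teff was 3.99 without Tnaive library 2 and 2.77 without Teff library 2 (edgeR adjusted p = 0.0061 and 0.0141). The difference between the lineages in the Nfil3 change was 0.49 ± 1.02 (edgeR adjusted p = 0.993).

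For the cytokines the groups were close to presence and absence. Il4 had 93 reads in eTreg and 1 in cTreg, a ratio of 92.34 after scaling with a 95% counting interval from 16.17 to 3686 (edgeR adjusted p = 1.32e-05). It had 267 reads in Teff and none in Tnaive, at least 83.28-fold higher with 3 reads over the group as the floor (edgeR adjusted p = 1.52e-07). Il13 had 36 reads in eTreg and none in cTreg, at least 11.91-fold higher (edgeR adjusted p = 0.000364), and 20 in Teff and none in Tnaive, at least 6.238-fold higher (edgeR adjusted p = 0.00274). Intervals and floors cover counting error only.

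Pparg had 12 and 13 reads in eTreg against 0 and 2 in cTreg (ratio 12.41, counting interval 3.095 to 108.1; edgeR adjusted p = 0.00423). It had 10 and 12 reads in Teff against 0 and 1 in Tnaive (ratio 20.59, 3.327 to 849.6; edgeR adjusted p = 0.00356). The groups did not overlap. Summed stromal marker genes without Pecam1 moved the same way, at 10.51 and 8.64 CPM in eTreg against 0.846 and 1.09 in cTreg and at 14.6 and 8.02 in Teff against 0.814 and 0.798 in Tnaive, and their part in Pparg was not tested. Without cTreg library 1 the log2 change was 2.53 and its call was lost (edgeR adjusted p = 0.0609), and without Tnaive library 1 the change in conventional cells was 3.22 (edgeR adjusted p = 0.0459).

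Stat6 was the member that was not called. It was at 380 and 386 CPM in eTreg and 425 and 426 in cTreg (-0.15 ± 0.10, edgeR adjusted p = 0.269), and at 339 and 338 in Teff and 411 and 382 in Tnaive (-0.23 ± 0.10, edgeR adjusted p = 0.0776). The CCR7lo libraries were below the CCR7hi ones in both lineages. When the 8 sorted libraries were fitted alone both differences passed (edgeR adjusted p = 0.0447 and 0.00781). That fit called 5431 and 5953 genes in all, against 3800 and 4312 in the fit of all libraries.

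Gata3 was called higher in Tregs than in conventional cells in both differentiation states, and Il4 was called lower in Tregs among the CCR7lo cells. In cTreg against Tnaive 1 of 6 members was called (12.2% of all tested genes, 7.91% higher and 4.28% lower): Gata3, higher by 0.66 ± 0.15 (edgeR adjusted p = 0.00423). In eTreg against Teff 1 was higher and 1 lower (15.5% of all genes, 8.21% higher and 7.26% lower). Gata3 was higher in eTreg by 0.45 ± 0.14 (edgeR adjusted p = 0.0394), a call lost whichever of the 4 libraries was left out (edgeR adjusted p from 0.112 to 0.186). Il4 was lower in eTreg, with a log2 change of -1.497 ± 0.38 (edgeR adjusted p = 0.0111), a ratio of 2.828 in favour of Teff (counting interval 2.225 to 3.62), and this was lost without eTreg library 1 (edgeR adjusted p = 0.129).

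Il13 did not follow Il4 in that comparison. It had 36 reads in eTreg and 20 in Teff (0.87 ± 0.55, edgeR adjusted p = 0.395). Nfil3 was higher in both eTreg libraries than in both Teff libraries (1.40 ± 0.48) but missed the threshold (edgeR adjusted p = 0.0573), and Pparg was alike in reads, 25 and 22 (0.21 ± 0.55, edgeR adjusted p = 0.899).

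The Teff libraries also held RNA of genes that mark other cell types. The summed level of 10 natural killer and NKT markers was 379 and 550 CPM in Teff and 11.1 to 63.4 in all other libraries, with Zbtb16, the factor that defines NKT cells, at 1093 and 740 reads. The summed level of 12 dendritic cell markers was 244 and 607 CPM in Teff and 79.5 to 232 elsewhere. Summed B cell markers were at 68.9 and 76.3 CPM in Teff against 8.35 and 9.28 in Tnaive, and at 62.5 and 62.0 in eTreg against 14.3 and 15.7 in cTreg. Summed macrophage and monocyte markers were at 42.1 and 38.8 against 14.2 and 17.2 (7 of 9 tested higher, 1 lower), and at 31.9 and 49.4 against 17.1 and 24.2 (3 higher, 1 lower). Of 14 mast cell, basophil and eosinophil markers, 12 were too low to test, and 8 had no read in Teff, Mcpt8 and Gata2 among them. Their summed level was 12.6 and 10.1 CPM in Teff against 2.34 and 2.10 in Tnaive. Kit made up most of it, at 10.2 and 8.11 CPM, and was called higher in Teff than in Tnaive (1 of the 2 tested). The eTreg libraries, which also had Il4 and Il13, had natural killer and NKT sums of 52.4 and 49.99 CPM against 56.4 and 56.2 in Tnaive and 13.3 and 21.6 in cTreg, and mast cell, basophil and eosinophil sums of 3.15 and 3.93 against 2.82 and 3.56 in cTreg. Il4 was even between the 2 Teff libraries (both 12.6 CPM), while the dendritic and NKT sums were not. The part of these cells in the Il4 and Il13 levels was not tested.

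In the germline set 2 of 6 members were higher in WT Treg than in Tconv, where 18.7% of tested genes were called (12.1% higher, 6.68% lower). Gata3 was at 289 and 348 CPM in WT Treg against 174 and 183 in Tconv (0.84 ± 0.15, edgeR adjusted p = 0.000351), and at edgeR adjusted p = 0.0511 when the 6 germline libraries were fitted alone. Nfil3 was at 91.8 and 168 against 29.9 and 50.2 (1.69 ± 0.47, edgeR adjusted p = 0.0154). The Nfil3 call was lost without WT Treg library 2 (edgeR adjusted p = 0.156) and without Tconv library 1 (edgeR adjusted p = 0.143). Il4 was alike, with 8 and 7 reads in WT Treg and 7 and 6 in Tconv, and the counting interval of its ratio ran from 0.4538 to 2.334. Pparg had 7 reads in WT Treg and none in Tconv (edgeR adjusted p = 0.0662).

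Loss of BATF was measured in 2 ways, in all cells of the animal and in Foxp3-expressing cells. Only Pparg was called in BATFKO Treg against WT Treg (1 of 6 members, 2.69% of all tested genes, 1.05% higher and 1.64% lower), and no member was called in BATFcKO Treg YFP against WT Treg YFP (0 of 6, 2.04% of all genes, 0.319% higher and 1.72% lower). There Gata3 and Il13 had unadjusted edgeR p-values of 0.0477 and 0.0254 and the other 4 were above 0.05, and DESeq2 also called 0 of 6. The Th2 cytokines had few reads in all 8 libraries, so that only large differences could be seen. Pparg reached the level of the filter on low counts in both libraries of only 2 groups, BATFKO Treg among them. Its call in BATFKO Treg is thus a description of what was measured.

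Pparg had 65 and 19 reads in BATFKO Treg against 2 and 5 in WT Treg. Its groups did not overlap, as held for 25.3% of tested genes there (11.1% higher, 14.2% lower). The log2 change was 3.49 ± 0.58 (edgeR adjusted p = 0.00179) and the ratio 11.93 (counting interval 5.544 to 30.59). Against Tconv it was at least 24.67-fold higher (edgeR adjusted p = 1.58e-05). Much of this came from library 1: without it the ratio to WT Treg was 6.063 (log2 change 2.57, edgeR adjusted p = 0.0321) and the bound against Tconv 12.53. The log2 change was 2.85 without WT Treg library 1 and 4.43 without WT Treg library 2 (edgeR adjusted p = 0.0334 and 0.00837). With the germline libraries alone, where 2 genes in all were called, the Pparg change of 3.47 had an edgeR adjusted p of 0.469. In the YFP set Pparg had 11 and 10 reads in BATFcKO Treg YFP against 7 and 7 (0.72 ± 0.61, edgeR adjusted p = 0.793). The difference between the germline and conditional changes was 2.77 ± 0.89 (unadjusted p = 0.00621, edgeR adjusted p = 0.636), and no gene was called for that difference.

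A part of the stromal marker genes was higher in BATFKO Treg as well. Of 12 tested genes of a stromal and endothelial marker list, 5 were higher and none lower in BATFKO Treg against WT Treg. Among all tested genes 1.05% were higher and 1.64% lower, and Pecam1 was 1 of the 5. Fn1 (fibronectin) had 48 and 43 reads against 1 and 5, Gja1 (connexin 43) 39 and 81 against 5 and 1, Igfbp7 98 and 95 against 14 and 5, and Lamb1 (laminin) 44 and 87 against 1 and 1. The summed level of the list without the T cell-expressed gene Pecam1 was 32.3 and 52.9 CPM in BATFKO Treg, 5.71 and 6.60 in WT Treg and 1.06 and 1.61 in Tconv. In the YFP set the sums were 14.5 and 9.16 CPM in BATFcKO Treg YFP against 8.99 and 5.75 in WT Treg YFP. From the list only Pecam1 was called there. Gja1 had 12 and 17 reads against 1 and 5 in that set, and Lamb1 20 and 9 against 2 and 0. Fn1 had 2 and 5 against 7 and 1, and Col1a1 2 and 4 against 14 and 11. The library with more Pparg, BATFKO Treg 1, had the lower stromal sum. The tested collagen genes were not called: Col1a1 had 6 and 7 reads against 11 and 17 in WT Treg, and Col1a2 5 and 4 against 4 and 4. Col4a1 was too low to test, with none against 1 and 2. Dcn and Pdgfra, defining fibroblast genes, had no read in either group, and none of 8 adipocyte markers could be tested (Adipoq had 6 and 7 reads against 3 and 2). The Foxp3KO set had stromal sums of 25.0 to 35.9 CPM with Pparg at 1.67 CPM or less, but in part from other genes. Dcn was at 6.41 to 9.25 CPM there and Igfbp7 at 1.79 to 6.92, while Fn1, Gja1 and Lamb1 were at 2.44 or less. Of 12 dendritic cell markers 1 was higher, the chemokine receptor gene Xcr1, with 51 and 16 reads against 6 and 3, so that library 1 was the higher one as for Pparg. Summed dendritic cell markers were at 164 and 232 CPM against 117 and 129, and summed B cell markers at 44.2 and 37.1 against 19.0 and 26.7. The part of stromal, dendritic or B cell RNA in the Pparg value was not tested.

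**Figure D3:**
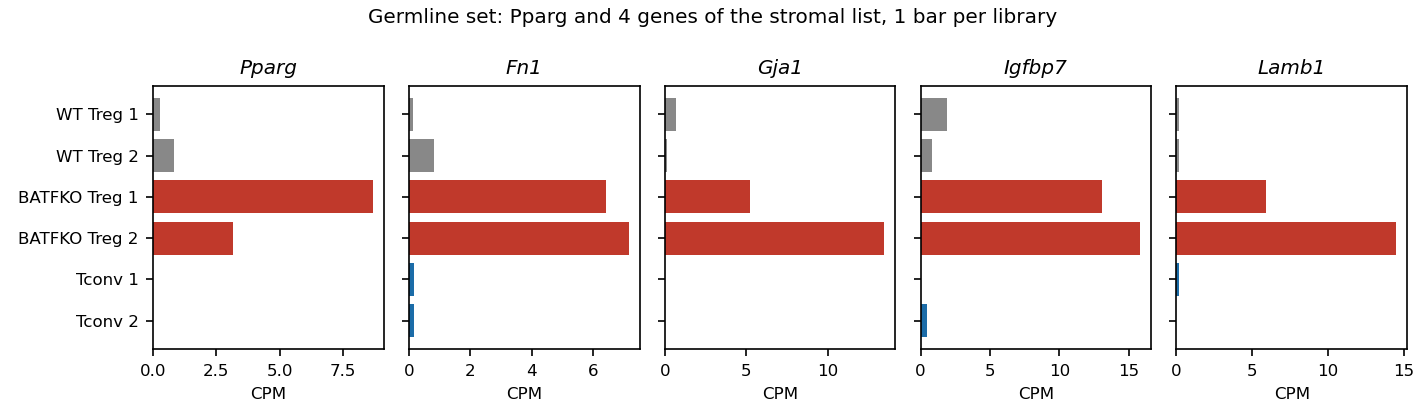
CPM in each of the 6 germline libraries (1 bar per library, axis from 0) for Pparg and 4 genes of the stromal marker list. Both BATFKO Treg bars exceed both WT Treg bars in all 5 panels, and Pparg is higher in library 1 whereas Fn1, Gja1, Igfbp7 and Lamb1 are higher in library 2.

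Gata3 and Nfil3 were lower without BATF in the germline set but not past the threshold. Gata3 was at 261 and 254 CPM in BATFKO Treg against 289 and 348 (-0.31 ± 0.14, edgeR adjusted p = 0.415), and Nfil3 at 45.0 and 84.1 against 91.8 and 168 (-1.01 ± 0.45, edgeR adjusted p = 0.369). Library numbers were taken to pair the germline libraries across groups from these same data, as no label states pairs. With the replicate block both passed (Gata3 -0.30, edgeR adjusted p = 0.0318, and Nfil3 -1.01, edgeR adjusted p = 1.31e-05), making 3 of 6 members called. The block called 1037 of the 12227 tested genes there, against 329 without it. In the YFP set Gata3 was at 204 and 145 CPM against 241 and 191 (-0.31 ± 0.15, edgeR adjusted p = 0.459) and Nfil3 at 23.8 and 7.55 against 39.4 and 12.1 (-0.74 ± 0.54, edgeR adjusted p = 0.728). For both genes the YFP groups overlapped, with library 1 above library 2 in each. With the replicate block both were called there too (Gata3 -0.32, edgeR adjusted p = 0.0288, and Nfil3 -0.72, edgeR adjusted p = 0.0185). The YFP numbers were not taken as pairs, since that set has 1 pair of groups (r of 0.242).

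The cytokines and Stat6 were not called after loss of BATF. Il4 had 23 and 6 reads in BATFKO Treg against 8 and 7 in WT Treg (edgeR adjusted p = 0.677), and 0 and 1 in BATFcKO Treg YFP against 3 and 3 (edgeR adjusted p = 0.664). Il13 had 3 and 2 reads against 0 and 2 in the germline set and none against 1 and 5 in the YFP set. These were few reads, and the germline change minus the conditional one was not called for either cytokine (edgeR adjusted p = 0.951 for Il4 and 0.878 for Il13). Stat6 differed by 0.04 ± 0.10 in both sets.

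BATFKO Treg against Tconv gave 2 of 6 members higher (21.9% of all genes, 12.8% higher and 9.14% lower), Pparg as above and Gata3 (0.53 ± 0.15, edgeR adjusted p = 0.0128). The Gata3 call was lost without Tconv library 1 (edgeR adjusted p = 0.0677) and with the germline libraries alone (edgeR adjusted p = 0.168). With the replicate block Nfil3 was called as well (0.68, edgeR adjusted p = 0.000545), where 4695 genes were called in all, against 2680 without the block.

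In both Foxp3 mutants Gata3 and Pparg were lower than in the control Tregs, while Nfil3, Il4, Il13 and Stat6 were not called. In Foxp3R397W Treg 2 of 6 members were lower (6.13% of all tested genes called, 2.18% higher and 3.94% lower), and in Foxp3KO Treg 2 of 6 (9% of all genes called, 2.62% higher and 6.39% lower), the same 2 genes. Gata3 was at 130 and 171 CPM in Foxp3R397W Treg against 274 and 287 in its control (-0.89 ± 0.15, edgeR adjusted p = 0.000856). It was at 143 and 152 CPM in Foxp3KO Treg against 238 and 227 (-0.65 ± 0.14, edgeR adjusted p = 0.0057). The mutant libraries lay far below their controls in both sets. Without 1 of 3 Foxp3KO set libraries the second call was lost (edgeR adjusted p = 0.054 without control library 5, 0.0816 and 0.0512 without Foxp3KO Treg 1 and 2).

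Pparg had 1 read in each library of Foxp3R397W Treg against 8 and 12 in its control, while stromal sums were higher there (20.8 and 9.80 CPM against 7.18 and 4.82). That was a ratio of 10.25 in favour of the control (counting interval 2.49 to 90.44; edgeR adjusted p = 0.0384). In the deeper Foxp3KO set it had 12 and 14 reads against 41 and 36 (-1.74 ± 0.46, edgeR adjusted p = 0.0214). The control had more in every library, and yet each call rested on all 4 libraries. Leaving out any 1 gave edgeR adjusted p from 0.0801 to 0.227 in the first set and from 0.0622 to 0.163 in the second. DESeq2 gave an adjusted p of 0.0572 for the first.

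Nfil3 was lower in each mutant library than in each control library but was not called. Such separation, in either direction, held for 50.1% of tested genes in the R397W set and 70.5% in the Foxp3KO set. It was at 47.7 and 34.4 CPM in Foxp3R397W Treg against 90.1 and 92.3 (-1.15 ± 0.47, edgeR adjusted p = 0.196), and at 69.1 and 57.8 in Foxp3KO Treg against 145 and 144 (-1.19 ± 0.43, edgeR adjusted p = 0.109). Fitted within each set alone both passed (edgeR adjusted p = 8.87e-09 and 1.2e-05). Those fits called 1418 and 4121 genes in all, against 749 and 1101 in the fit of all libraries.

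The cytokines were not called in either mutant. Il13 had 1 and 1 reads in Foxp3R397W Treg against 5 and 1, and 7 and 7 in Foxp3KO Treg against 9 and 21 (-1.23 ± 0.59, edgeR adjusted p = 0.265). Il4 had 8 and 5 reads against 6 and 6 (0.08 ± 0.73, edgeR adjusted p = 0.988), and 22 and 30 against 12 and 48 (-0.35 ± 0.45, edgeR adjusted p = 0.76). The 2 control libraries of the Foxp3KO set thus differed more in Il4 than the groups did. Stat6 was at 324 and 375 CPM in Foxp3R397W Treg against 377 and 370, and at 372 and 372 in Foxp3KO Treg against 387 and 373. No member was called for the difference between the 2 mutants' changes (0.0164% of all genes called).

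**Figure D4:**
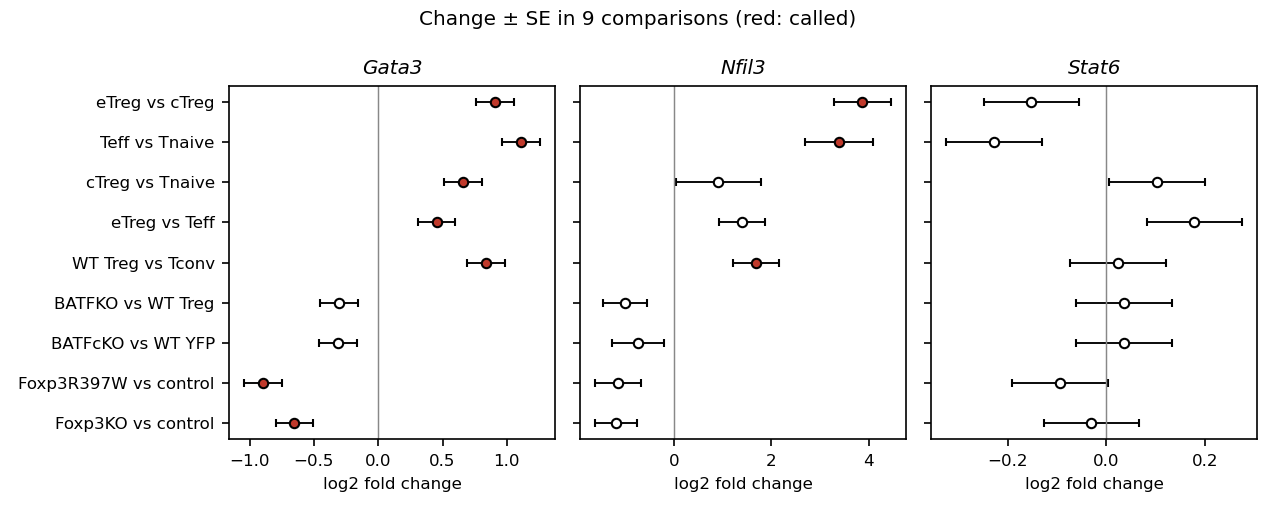
Log2 fold change with its SE (edgeR, 2 libraries per group) of Gata3, Nfil3 and Stat6 in 9 comparisons, red where the adjusted p was below 0.05. Gata3 is called in 7 of them, higher in 5 and lower in the 2 Foxp3 mutants, Nfil3 in 3 and Stat6 in none.

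Receptors that mark Th2 cells and tissue Tregs were nearly all higher in the CCR7lo groups. This list, like those below, was written with earlier results of these data known. Of its 10 genes 9 were tested (Ptgdr2 was too low). In eTreg against cTreg all 9 were higher, with a median log2 change of 4.87, and in Teff against Tnaive 8 were higher and none lower. In eTreg Ccr4, a skin and tissue homing receptor, was at 173 CPM against 5.95 in cTreg (4.86 ± 0.33, edgeR adjusted p = 2.89e-09), the IL-25 receptor gene Il17rb at 25.7 against 1.06 (4.58 ± 0.36, edgeR adjusted p = 1.53e-08), Ccr8 at 62.3 against 5.07 (3.62 ± 0.28, edgeR adjusted p = 1.57e-08) and the IL-18 receptor gene Il18r1 at 343 against 73.3 (2.22 ± 0.19, edgeR adjusted p = 4.68e-08). Il1rl1, which encodes the IL-33 receptor, had 192 reads in Teff and none in Tnaive. Between eTreg and Teff 5 were higher and 1 lower: Ccr8 (2.63 ± 0.26), Il1rl1 (3.61 ± 0.39), Tnfrsf8, which encodes CD30 (3.05 ± 0.38), and Ccr3 (4.35 ± 0.66) were among the higher ones.

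In the mutants a part of these receptors was lower. Without BATF 3 were lower and none higher in the germline set and 5 lower in the YFP set. Ccr4 was at 3.94 CPM against 52.1 and Il18r1 at 44.6 against 136 in the germline set, and at 6.86 against 69.0 and 62.4 against 163 in the YFP set. Il1rl1 was not called there (0.12 ± 0.35, edgeR adjusted p = 0.992, and -0.89 ± 0.37, edgeR adjusted p = 0.352). In the Foxp3 mutants 4 were lower and 1 higher (R397W) and 5 lower and none higher (Foxp3KO). Il1rl1 was at 2.73 against 54.5 CPM in Foxp3R397W Treg (-4.31 ± 0.49, edgeR adjusted p = 3.58e-05) and at 4.75 against 43.7 in Foxp3KO Treg (-3.20 ± 0.37, edgeR adjusted p = 2.34e-05). Il18r1 was higher in Foxp3R397W Treg by 0.97 ± 0.18 (edgeR adjusted p = 0.00274), and Ccr4 was not called in either Foxp3 mutant (0.07 ± 0.28, edgeR adjusted p = 0.958, and -0.54 ± 0.26, edgeR adjusted p = 0.264). Ccr8 was lower in all 4 mutants. Whether BATF loss and Foxp3 mutation differ for a receptor was not tested.

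**Figure D5:**
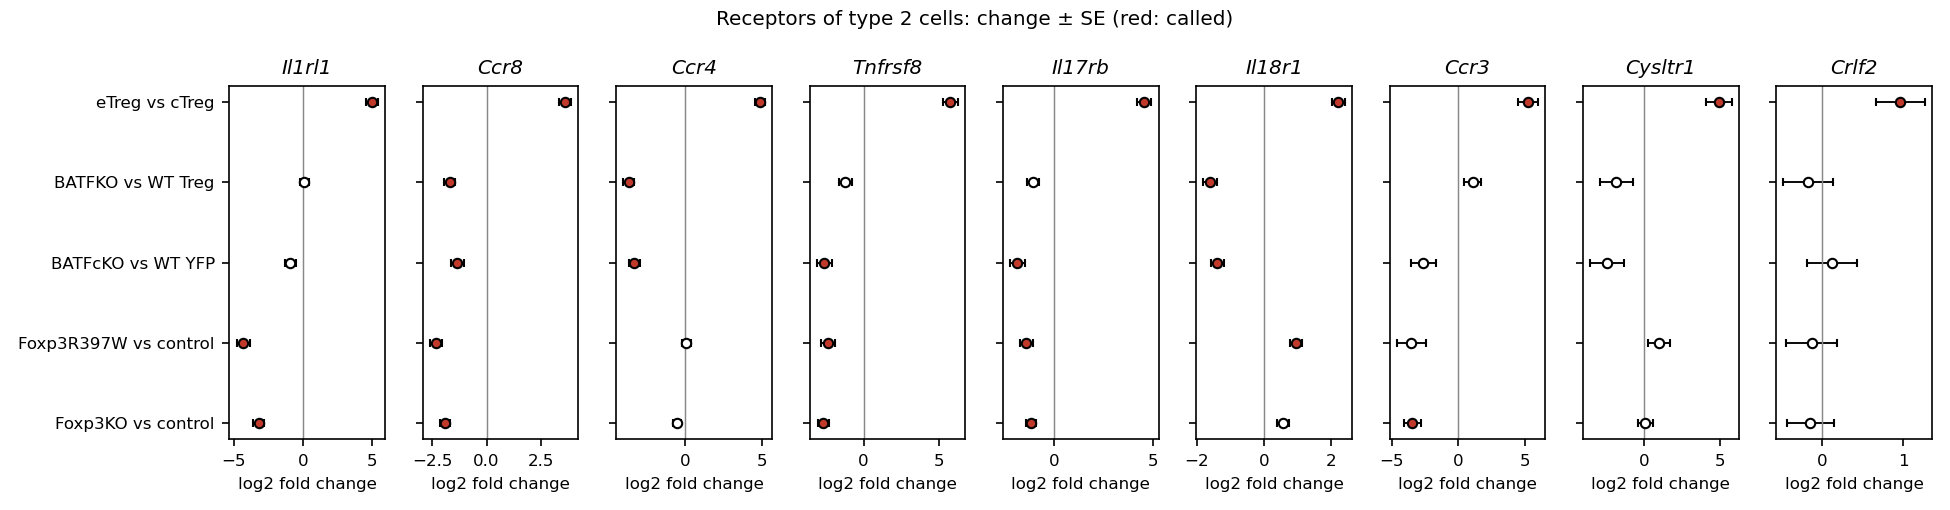
Log2 fold change with its SE (edgeR, 2 libraries per group) of the 9 tested receptor genes in 5 comparisons, red where the adjusted p was below 0.05; each panel has its own scale. Il1rl1 is lower in both Foxp3 mutants and Ccr4 in both BATF losses, while Ccr8 is lower in all 4, and points of Ccr3 and Cysltr1 rest on 2 to 5 reads in some groups.

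The receptor and signalling genes of IL-4 and IL-13 gave a mixed picture. All 13 were tested. In eTreg against cTreg 4 were higher and 3 lower, and in Teff against Tnaive 5 and 3. Il4ra, the chain shared by the IL-4 and IL-13 receptors, was lower where Il4 was higher, at 186 CPM in eTreg against 457 in cTreg (-1.29 ± 0.27, edgeR adjusted p = 0.00112) and at 114 in Teff against 472 in Tnaive (-2.06 ± 0.28, edgeR adjusted p = 1.01e-05). Socs5, a suppressor of IL-4 receptor signalling, was higher by 0.78 ± 0.12 (edgeR adjusted p = 6.71e-05) and 1.12 ± 0.13 (edgeR adjusted p = 1.57e-06). Cish, a STAT5 target of the same family, was at 245 CPM in cTreg against 27.1 in Tnaive (3.18 ± 0.21, edgeR adjusted p = 3.73e-09). None of the 13 was called after BATF loss in either set. In the Foxp3 mutants 2 and 3 were lower and none higher, Socs5 (-0.66 ± 0.13 and -0.68 ± 0.12) and Cish (-0.82 ± 0.20 and -0.77 ± 0.19) in both.

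Of 15 other helper cytokines 7 were tested. In eTreg against cTreg 6 were higher and none lower, as in Teff against Tnaive. Il10, an inhibitory cytokine, was at 20.3 CPM in eTreg and 0.047 in cTreg, and Ifng, the Th1 cytokine, at 7.27 against 0.334 (4.39 ± 0.65, edgeR adjusted p = 3.27e-05). Against Teff, eTreg had less Ifng (-2.30 ± 0.36), Il21 (-3.77 ± 0.52) and Il2 (-4.44 ± 0.49) and more Il10 (2.92 ± 0.63). In Foxp3R397W Treg Il17a was at 53.0 CPM against 0.634 (6.37 ± 0.60, edgeR adjusted p = 3.58e-05) and Il21 at 23.2 against 1.87 (3.61 ± 0.67), and in Foxp3KO Treg Il17a was at 14.8 against 0.26 (5.78 ± 0.55, edgeR adjusted p = 1.98e-05). Areg, a tissue repair factor, fell in both (-2.25 ± 0.60 and -1.99 ± 0.48). None of the 7 was called after BATF loss in either set by edgeR.

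Genes beside the cytokine cluster changed in both directions. Of 14 neighbours 10 passed the filter. In eTreg against cTreg 2 were higher and 1 lower, a share near the 31.1% of all genes called there: Kif3a, a kinesin gene that ends 1014 bases from Il4 (1.29 ± 0.20, edgeR adjusted p = 4.55e-05), Sept8 (1.24 ± 0.22) and Slc22a5, a carnitine transporter gene (-1.03 ± 0.11). Rad50, between Il13 and Il5, was called in none of the 10 comparisons of 2 groups. Pdlim4, 329821 bases beyond Il5, was at 78.1 CPM in Tnaive, 5.95 in Teff, 0.524 in cTreg and 0.143 in eTreg. It was at 3.96 CPM in Foxp3R397W Treg against 0.157 in its control and at 5.54 in Foxp3KO Treg against 0.903 (2.64 ± 0.42, edgeR adjusted p = 0.000512).

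Among factors known to promote Th2 genes, 9 of 20 were higher and 4 lower in eTreg against cTreg, and the same numbers in Teff against Tnaive. Maf, a driver of Il4 transcription, was at 725 CPM in eTreg against 25.5 in cTreg (4.83 ± 0.29, edgeR adjusted p = 7.06e-10), and Irf4, the partner of BATF, at 147 against 44.9 (1.71 ± 0.13, edgeR adjusted p = 9.81e-09). Satb1, a chromatin organiser of the Th2 cluster, was lower (65.4 against 776 CPM, -3.57 ± 0.15, edgeR adjusted p = 6.59e-12). In BATFKO Treg 1 was higher, Irf4 (298 against 165 CPM, 0.85 ± 0.12, edgeR adjusted p = 0.000424), and 4 were lower, among them Batf itself, Epas1 (-1.62 ± 0.28) and Prdm1 (-1.13 ± 0.27). In BATFcKO Treg YFP Batf and Prdm1 were lower. In both Foxp3 mutants Tcf7, Ikzf1 and Satb1 were higher, by 0.50 to 0.89 in Foxp3R397W Treg and by 0.60 to 0.84 in Foxp3KO Treg, and Bhlhe41 was lower in the former.

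Of 8 factors known to restrain Th2 genes, 4 were higher and 3 lower in eTreg against cTreg. Tbx21, the Th1 master regulator, was at 23.7 CPM in eTreg, 1.11 in cTreg, 146 in Teff and 0.454 in Tnaive, so that it and Il4 were both highest in Teff. Bach2, a repressor that holds T cells in a naive-like state, was lower in eTreg (-2.25 ± 0.11) and in Teff (-2.52 ± 0.11). In the Foxp3 mutants 2 were higher and 1 lower in each: Sox4 (1.26 ± 0.30 and 1.32 ± 0.27), Bach2 (0.36 ± 0.10 and 0.57 ± 0.10) and Tbx21 (-1.43 ± 0.40 and -0.998 ± 0.28). In BATFKO Treg 1 was lower, Bcl6 (-0.75 ± 0.18), and in BATFcKO Treg YFP none was called.

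NFIL3 competes with the PAR bZIP factors for clock gene sites. Of 15 clock and PAR bZIP genes 8 were higher and 3 lower in eTreg against cTreg, led by Rora (187 against 22.7 CPM, 3.04 ± 0.19), a nuclear receptor of the clock, and 8 higher and 2 lower in Teff against Tnaive. In BATFKO Treg 6 were lower and none higher (Rora -1.50 ± 0.18, Nr1d2 -0.64 ± 0.12, Tef -0.47 ± 0.09, Arntl -0.44 ± 0.10 among them), and in BATFcKO Treg YFP 2 were lower, Rora (-2.27 ± 0.20) and Arntl (-0.49 ± 0.10). Hours of sorting are not in the labels used here, and the part of time of day was not tested. Of 12 tested partners and targets of PPAR gamma, 4 were higher in eTreg against cTreg, near the 31.1% of all genes called there, among them its partner Rxra (0.99 ± 0.17) and the lipid droplet gene Plin2 (0.92 ± 0.20). None of the 12 was called in any of the 4 mutants, including BATFKO Treg, where Pparg was higher. With 2.69% of all tested genes called in BATFKO Treg and 2.04% to 9% in the others, absent calls among 12 genes say little. The 12 leave out Fabp4, Cd36, Pdk4, Lpl, Scd1 and Ppargc1a, which were too low to test.

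The tested genes most like each member were found by Pearson's r of mean log2 CPM over the 13 groups, each group centred on its set. The points share libraries and the sorted set gives most of the spread, so r is a description. Gata3 was most like Ddx43 (0.9926), Ptafr (0.9919) and St3gal5 (0.9907), and Nfil3 most like Nf2 (0.9927), Icam5 (0.9896) and Rin2 (0.9883). Il4 was most like Chrm4 (0.9928), Ccl4 (0.9922) and Carhsp1 (0.9879), and Il13 most like Tmem106a (0.9808), Cfap36 (0.9779) and Stambp (0.9778). Pparg was most like Rhog (0.9667), Zdhhc21 (0.9661) and Btnl5-ps (0.9598), and Stat6 most like Sesn1 (0.9809), Ndufv1 (0.9757) and Cbl (0.9728). Among the members r was 0.932 for Gata3 and Nfil3, 0.896 for Il13 and Nfil3, 0.883 for Il4 and Il13 and -0.805 for Il4 and Stat6.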

How the data were processed

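RNA-seq was made from poly(A) RNA of 26 libraries of sorted mouse CD4 T cells, in 13 groups of 2. The authors deposited raw read counts per gene symbol. Reads were aligned with STAR 2.6.1c to mm10, per the submitters' processing notes; the counter and its strand setting are not given in the sources used here. Library depths are in the report, and 4 columns that match no sample were not used. Counts were tested in 1 model over all libraries with a coefficient per group (edgeR 4.0.16, R 4.3.3; TMM scaling, filterByExpr with a minimum count of 10, robust quasi-likelihood fit, 13 residual degrees of freedom), and p-values were adjusted by Benjamini-Hochberg over the 12227 tested genes. A gene was called at an adjusted p below 0.05, and the SE is the log2 fold change divided by the square root of F. The scripts were tested on simulated counts.

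Ratios of reads at low counts carry 95% intervals from the exact binomial distribution (Clopper-Pearson), and the floor for a group with no read is 3 reads over the group. Library numbers were taken to pair the germline libraries, since same-numbered libraries deviated together in all 3 pairs of groups (r of 0.557, 0.571 and 0.495). Alternatives were median-of-ratios scaling, no filter, a replicate block, each set alone, DESeq2 1.42.0 and leaving out each library. The members and gene lists were chosen with earlier results of these data known. Of each list at most 4 called genes with the smallest p are named per comparison, and the 3 most similar genes are given per tested member, leaving out receptor segments, mitochondrial genes and predicted models. Promoter letters are from RefSeq (GRCm38.p6), in which all 7 members were matched.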

Additional observations from a re-analysis of the deposited data

How the results depend on the processing

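Depth limits the cytokines and Pparg: most groups had under 30 reads of Il4, Il13 or Pparg, and Il5 could not be tested. Median-of-ratios scaling changed none of the 13 counts of called members and none of the 58 log2 changes in direction or call. Without the filter on low counts WT Treg against Tconv had 1 member called in place of 2, and Stat6 there turned to -0.00, as it did with DESeq2. DESeq2 called 1 member in place of 2 in Foxp3R397W Treg. With the libraries of each set alone 0 members were called in WT Treg against Tconv, 0 in BATFKO Treg against WT Treg (2 genes called in all) and 1 in BATFKO Treg against Tconv; that fit has fewer samples.

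With the replicate block 3 members were called in BATFKO Treg against WT Treg, 2 in BATFcKO Treg YFP (Gata3 and Nfil3) and 4 in eTreg against Teff (Nfil3 and Stat6 besides), and Il4 in WT Treg against Tconv turned to -0.01. The block called 1037, 1115 and 3609 genes in all in these 3 comparisons. The numbers were taken as pairs only in the germline set, from r in these same data, as no label states pairs. In the sorted set r ran from 0.0801 to 0.233, and the YFP set has 1 pair of groups (r of 0.242). Stat6 was also called with the block in eTreg against cTreg and in Teff against Tnaive (edgeR adjusted p = 0.0436 and 0.00306).

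Leaving out 1 library at a time, where the lone library is assumed to vary like the other groups, gave 1 to 3 called members for WT Treg against Tconv, 1 to 2 for BATFKO Treg against Tconv, 1 to 1 for Foxp3R397W Treg, 0 to 1 for Foxp3KO Treg and 0 to 2 for eTreg against Teff. Log2 changes that turned sign were in members that were not called. In WT Treg against Tconv they ran from -3.12 to 3.87 for Il13, -0.13 to 0.21 for Il4 and -0.05 to 0.11 for Stat6. In BATFKO Treg they ran from -0.16 to 1.46 for Il4 and -0.10 to 0.17 for Stat6 against WT Treg, and from -0.13 to 1.47 and -0.10 to 0.19 against Tconv. In Foxp3R397W Treg they ran from -0.36 to 0.44 for Il4 and -0.20 to 0.01 for Stat6, and in Foxp3KO Treg from -0.93 to 0.77 and -0.06 to 0.01. Nfil3 ran from -1.79 to 0.36 in BATFcKO Treg YFP and Pparg from -2.46 to 3.26 in cTreg against Tnaive. The Treg change on activation minus the conventional one ran from -0.12 to 1.10 for Nfil3 and -3.06 to 2.66 for Pparg. Except where a fit with fewer samples is named, the cause was not tested.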
